A study of Mus musculus with 12 samples.

Results

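The genes described here encode the NF-kB transcription factors and the proteins that hold them back. They are 10 genes of the 55487 in the count tables, chosen by symbol and found by their Ensembl identifiers in the GENCODE annotation of the mouse genome GRCm38. The 5 subunit genes (Nfkb1, Nfkb2, Rel, Rela and Relb) and 5 inhibitor genes (Nfkbia, Nfkbib, Nfkbie, Nfkbiz and Tnfaip3) make up the set, and all 10 had enough counts to be tested in every comparison.

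NF-kB proteins are dimers of Rel-family subunits that wait in the cytoplasm of resting cells, bound by inhibitors of the IkB family. Signals such as bacterial lipopolysaccharide (LPS), TNF or IL-1 activate the IkB kinase, the IkB protein is degraded, and the dimer enters the nucleus and binds kappaB sites in DNA. Several inhibitors, and some of the subunits, are themselves NF-kB target genes, so the pathway restrains itself through new transcription. In bone, NF-kB is known for its part in inflammatory cytokine production by macrophages and in the formation of osteoclasts.

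RNA was sequenced in 2 experiments on cells from C57BL/6 mice labelled as 8 weeks old. In the first, bone marrow macrophages (BMMs), grown out in culture with macrophage colony-stimulating factor, came from female mice whose ovaries had been removed (OVX, 3 libraries), a model of bone loss after estrogen is lost, or from mice given a sham operation (3 libraries). In the second, mesenchymal stem cells (MSCs, the marrow stromal cells that can become bone-forming cells) were cultured alone (MSC), with untreated RAW264.7 cells (MSC+RAW-TW) or with LPS-treated RAW264.7 cells (MSC+RAW-LPS-TW), 2 libraries each. RAW264.7 is a mouse macrophage line, and TW stands for the transwell insert that the study describes between the cell layers, where the sample labels say only that the cells were grown together. The labels do not say whether libraries of one group came from separate animals or cultures, so the p-values measure the spread between these libraries, which may be technical.

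Libraries held 17012923 to 45367105 counts. A chi-square of the counts of sham replicates 2 and 3 was 2.52 times the sampling noise at low and 2.75 times at high counts, and that of both MSC+RAW-TW libraries 3.03 and 3.22 times. The other pairs of one group reached 15.1 to 72.8 times at high counts, so these near-identical pairs were each counted as 1 sample. In each experiment genes of high and low GC content differed between libraries. This difference set OVX apart from sham and MSC+RAW-TW apart from the other MSC groups, and it is given beside the results it touches. The 18 macrophage markers were all present at 1 CPM or more (CPM is the count scaled to a library of 1000000, with TMM factors) in every library, those of the MSC groups included. In the MSC groups the summed macrophage markers ran from 31083 to 31502 CPM for MSC, from 41234 to 41888 for MSC+RAW-TW and from 16040 to 16849 for MSC+RAW-LPS-TW. The 14 stromal markers summed to 2962 to 3112, 2658 to 2697 and 4316 to 4326 CPM in the same order. Between 12 and 13 of the 14 stromal markers were at 1 CPM or more in these libraries, with the collagen gene Col1a2 at 605 to 1086 CPM, the receptor gene Pdgfrb at 138.5 to 166 CPM and the surface marker Thy1 at 0.240 to 2.14 CPM. Lyz2, a macrophage lysozyme, was at 9168 to 26546 CPM, so the libraries of the MSC groups, MSC alone included, held macrophage transcripts beside stromal ones. The BMM libraries held stromal transcripts too, with 13 or 14 of the 14 markers at 1 CPM or more, sums of 7365 to 8580 CPM and Col1a2 at 2433 to 3353 CPM, beside Lyz2 at 36579 to 52514 CPM. The name macrophages below is that of the labels. The part of these cells in the results below was not tested, and in bulk RNA fewer cells of a type and less RNA per cell cannot be told apart.

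Nfkb1, the gene of p105 and its product p50, lies on chromosome 3 from 135584655 to 135691547. Nfkb2, the gene of p100 and p52, lies on chromosome 19 from 46304320 to 46312385. Rel encodes c-Rel (chromosome 11, 23736847 to 23770970), Rela encodes p65 (chromosome 19, 5637483 to 5648130) and Relb encodes RelB (chromosome 7, 19606217 to 19629438). Among the inhibitors, Nfkbia (chromosome 12, 55489410 to 55492647) encodes IkB-alpha, Nfkbib (chromosome 7, 28758251 to 28767512) IkB-beta and Nfkbie (chromosome 17, 45555703 to 45563169) IkB-epsilon. Nfkbiz (chromosome 16, 55811375 to 55838899) encodes IkB-zeta, a nuclear IkB protein that can also activate some targets such as Il6. Tnfaip3 (chromosome 10, 19000910 to 19015657) encodes A20, a ubiquitin-editing enzyme that shuts off signaling above the IkB kinase. Exons of Nfkb2 overlap those of Psd and AC114539.1, and exons of Nfkbib overlap those of Sirt2 and Ccer2, all on the opposite strand. The strand setting of the counting was not given in the sources used here, so reads of these overlaps cannot be told apart, and the values of Nfkb2 and Nfkbib are less certain for it.

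Since several of these genes are known NF-kB targets, RefSeq promoter windows of the same assembly (GRCm38.p6; 250 bases before to 50 bases after a transcript start) were searched for the kappaB consensus on both strands. Windows were given for 7 of the 10 genes (not for Nfkb1, Relb and Nfkbiz), and 7 of their 10 windows held at least 1 match. Of 32851 windows over all genes, 8.46% held a match, 1.22% held 2 or more and 0.19% held 3 or more. Matches overlap where 1 run of bases reads as the consensus in both frames or on both strands. The windows below are of the inhibitors with the best known feedback (Nfkbia, Tnfaip3), of the subunit gene with most matches (Nfkb2), and of a subunit and an inhibitor gene without a match (Rela, Nfkbib). Each is written 5′ to 3′ on the strand of its gene, with matches in capitals.

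Nfkbia, chr12:55492598-55492897, minus strand: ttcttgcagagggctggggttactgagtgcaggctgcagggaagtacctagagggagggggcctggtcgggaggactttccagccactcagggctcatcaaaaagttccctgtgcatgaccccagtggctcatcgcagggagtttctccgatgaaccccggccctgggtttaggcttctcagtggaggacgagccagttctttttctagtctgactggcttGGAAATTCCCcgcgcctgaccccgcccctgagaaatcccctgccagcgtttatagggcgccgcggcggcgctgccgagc

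Tnfaip3, chr10:19015361-19015660, minus strand: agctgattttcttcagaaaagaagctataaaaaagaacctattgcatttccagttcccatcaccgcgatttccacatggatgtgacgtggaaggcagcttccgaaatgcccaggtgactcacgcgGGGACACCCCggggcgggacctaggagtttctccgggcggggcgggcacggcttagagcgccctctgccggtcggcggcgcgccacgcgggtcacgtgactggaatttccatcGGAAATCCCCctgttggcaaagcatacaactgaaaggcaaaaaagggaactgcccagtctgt

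Nfkb2, chr19:46304487-46304786, plus strand: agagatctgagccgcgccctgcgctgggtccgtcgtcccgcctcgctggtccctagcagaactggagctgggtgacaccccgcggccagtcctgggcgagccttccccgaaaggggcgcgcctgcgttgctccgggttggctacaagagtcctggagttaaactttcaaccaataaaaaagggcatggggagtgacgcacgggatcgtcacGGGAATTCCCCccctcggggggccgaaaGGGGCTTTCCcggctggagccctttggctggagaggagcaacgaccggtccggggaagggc

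Rela, chr19:5637291-5637590, plus strand: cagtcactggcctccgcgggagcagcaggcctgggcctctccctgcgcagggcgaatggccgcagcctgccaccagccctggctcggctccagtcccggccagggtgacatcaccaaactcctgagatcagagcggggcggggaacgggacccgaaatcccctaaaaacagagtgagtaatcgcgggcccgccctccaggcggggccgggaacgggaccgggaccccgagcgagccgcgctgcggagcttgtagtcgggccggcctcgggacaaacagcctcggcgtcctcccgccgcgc

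Nfkbib, chr7:28766595-28766894, minus strand: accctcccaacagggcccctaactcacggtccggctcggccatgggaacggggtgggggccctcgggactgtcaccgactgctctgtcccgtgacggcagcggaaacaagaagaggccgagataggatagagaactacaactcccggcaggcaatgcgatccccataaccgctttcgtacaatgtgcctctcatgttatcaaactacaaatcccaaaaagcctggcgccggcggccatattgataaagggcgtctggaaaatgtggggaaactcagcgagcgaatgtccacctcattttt

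The match of Nfkbia began at position -29 from its start, those of Tnfaip3 at -125 and -12, and those of Nfkb2 at -39, -38 and -11. The second Nfkb2 start had matches at -236 and 10, the third had 1 at -225, and the second Tnfaip3 start had none. Rel had matches at -92 and -91, and Nfkbie had 1 at -106. A match is a sequence feature of the window, and binding was not measured here.

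Per kilobase of exon, the scale on which different genes can be compared, Nfkbia was the most abundant of the 10 transcripts in each of the 5 groups. In sham BMMs the mean levels per kilobase ran in the order Nfkbia (480.5 CPM, SD 1.28, n = 2), Nfkbiz (49.3, SD 6.96), Rela (26.9, SD 1.29), Nfkbib (20.2, SD 0.255), Relb (14.6, SD 3.19), Nfkb2 (13.2, SD 0.751), Nfkbie (9.998, SD 0.0976), Nfkb1 (6.29, SD 1.75), Tnfaip3 (3.62, SD 0.902) and Rel (2.15, SD 0.169). Relb and Nfkb2 were closer than the SD of Relb. In MSC the order was Nfkbia (64.1 CPM per kilobase, SD 5.54, n = 2), Rela (18.1, SD 1.93), Nfkb2 (9.40, SD 0.117), Nfkbie (8.95, SD 0.373), Nfkbib (8.93, SD 0.501), Nfkbiz (8.50, SD 1.06), Nfkb1 (6.49, SD 0.357), Relb (6.35, SD 0.121), Tnfaip3 (3.28, SD 0.218) and Rel (2.70, SD 0.240). Nfkb2, Nfkbie, Nfkbib and Nfkbiz lay within 1 SD of Nfkbiz, and Nfkb1 and Relb within 1 SD of Nfkb1. Rela thus exceeded the other subunits and Rel was lowest both in macrophages and in MSC.

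The study treated macrophages with LPS to mimic impaired mitochondrial function. It sequenced the MSCs to find how mitochondria passed on by macrophages change MSC metabolism. In MSC+RAW-LPS-TW, 9 of the 10 NF-kB genes rose against MSC, and the increases of Tnfaip3, Nfkbiz and Nfkbia were between 8.91-fold and 10.9-fold. Called here means a change of 2-fold or more together with an adjusted p of 0.05 or less in edgeR's quasi-likelihood test, and over all 20499 genes tested 5.85% were called higher and 5.09% lower. The median difference of the 10 genes was 1.70 on the log2 scale, against -0.01 over all genes. Rela, the tenth, passed the adjusted p, as 20.9% of all genes did, but not the fold limit.

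Tnfaip3 stood at 22.6 and 24.8 CPM in the MSC libraries and at 276 and 237 CPM in MSC+RAW-LPS-TW. Its log2 fold change was 3.44 (SE 0.17, adjusted p = 6.75e-10). Nfkbiz was at 38.9 and 46.4 CPM in MSC and at 417 and 447 CPM in MSC+RAW-LPS-TW. Both inhibitors were thus higher in each LPS library than in each library of MSC, with room between the groups far wider than the gap between libraries of one group. The log2 fold change of Nfkbiz was 3.35 (SE 0.17, adjusted p = 8.62e-10). Nfkbia was at 96.9 and 109 CPM in MSC and at 862 and 965 CPM in MSC+RAW-LPS-TW, a log2 fold change of 3.16 (SE 0.17, adjusted p = 1.47e-09). IkB-alpha and A20 are the textbook feedback products of NF-kB activation. The other IkB genes had smaller values. Nfkbib went from 18.6 and 20.1 CPM to 53.3 and 74.2 CPM (log2 fold change 1.73, SE 0.18, adjusted p = 3.59e-06) and Nfkbie from 26.4 and 28.1 CPM to 57.5 and 60.3 CPM (1.12, SE 0.15, adjusted p = 5.80e-05).

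**Figure D1:**
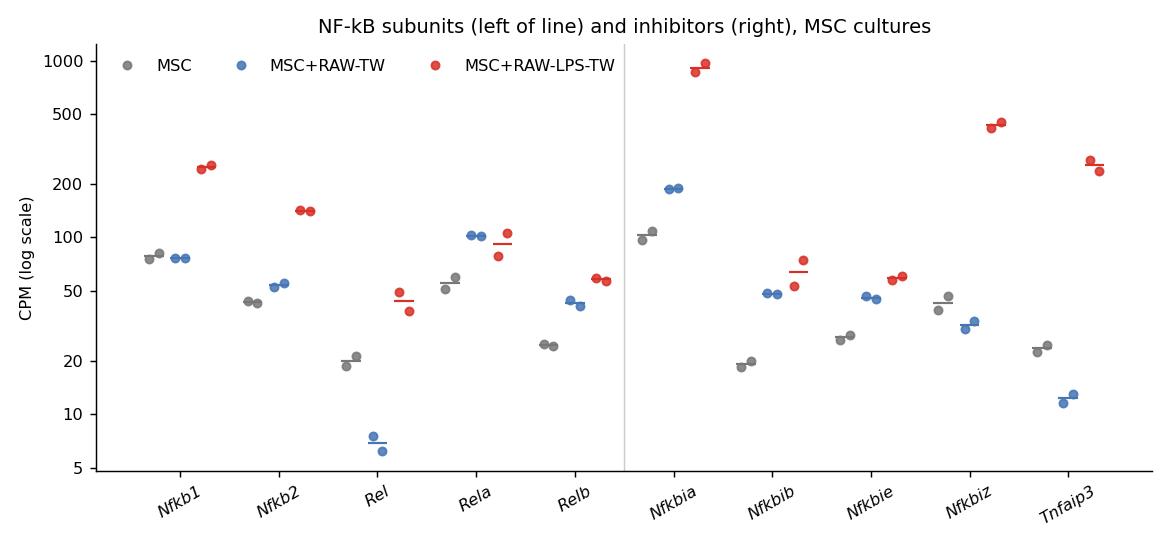
Level of each NF-kB gene in the MSC cultures, in CPM on a log axis. Each point is 1 library and each bar the mean of a group's libraries. In MSC+RAW-LPS-TW, Tnfaip3, Nfkbiz and Nfkbia stand far above the other groups, while Rela in MSC+RAW-LPS-TW spans the level in MSC+RAW-TW.

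Among the subunits, both precursor genes rose most. Nfkb1 was at 75.3 and 81.4 CPM in MSC and at 243 and 256 CPM in MSC+RAW-LPS-TW (log2 fold change 1.68, SE 0.15, adjusted p = 6.17e-07). Nfkb2 was at 43.5 and 42.7 CPM and then at 143 and 141 CPM (1.73, SE 0.15, adjusted p = 4.35e-07). The fitted folds were 3.20 and 3.31, and the libraries of one group differed by little. Relb, the usual partner of p52, went from 24.98 and 24.3 CPM to 59.3 and 57.0 CPM (1.25, SE 0.15, adjusted p = 2.01e-05). Rel went from 18.9 and 21.4 CPM to 49.3 and 38.4 CPM (1.13, SE 0.18, adjusted p = 0.000233). Rel was less even between the LPS libraries, and without LPS library 2 (as numbered in the column names) its log2 fold change was 0.92, under the fold limit. Rela went from 51.4 and 59.8 CPM to 78.3 and 106 CPM, a log2 fold change of 0.74 (SE 0.17, adjusted p = 0.00559). The groups overlapped for none of the 10 genes, and 57.6% of all genes tested did not overlap either.

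Other measures moved with the LPS coculture. The 18 macrophage markers were lowest and the 14 stromal markers highest in MSC+RAW-LPS-TW, with the sums given above. The 9 neutrophil markers summed to 11.8 to 16.6 CPM in MSC, 31.5 to 34.5 in MSC+RAW-TW and 370.5 to 554 in MSC+RAW-LPS-TW, of which S100a8 made up most, while Ltf had no count in any of these libraries. The osteoclast markers ran from 71.0 to 151 CPM over these libraries, the B cell markers from 1.34 to 3.03 CPM and the T cell markers from 0.992 to 4.04 CPM. The part of these markers in the rise of the NF-kB genes was not tested. The identifiers in the column names split each group into 1 library of a lower and 1 of a higher number range, and each of the 9 called genes was higher in both ranges, with log2 ratios from 0.84 for Rel in the higher range to 3.61 for Tnfaip3 in the lower.

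The balance between inhibitor and subunit transcripts within a library does not depend on the scaling of libraries. Per kilobase, Nfkbia was 3.49 to 3.59 times the level of Rela in MSC, 3.48 to 3.56 times in MSC+RAW-TW and 17.3 to 20.98 times in MSC+RAW-LPS-TW. In BMMs this ratio was 17.1 to 18.4 in sham and 9.43 to 12.3 in OVX, so that the ranges of sham macrophages and of the LPS cocultures overlapped. Tnfaip3 to Rela was 0.176 to 0.187 in MSC, 0.0480 to 0.0540 in MSC+RAW-TW and 0.945 to 1.496 in MSC+RAW-LPS-TW. In BMMs it was higher in OVX (0.175 to 0.229) than in sham (0.0954 to 0.164), where Nfkbia to Rela was lower in OVX. The ratio of Nfkb2 to Nfkb1, the precursors of the alternative and classical dimers, was 1.38 to 1.52 in MSC and 1.45 to 1.55 in MSC+RAW-LPS-TW, ranges that overlap. It was 1.82 to 1.90 in MSC+RAW-TW, and in BMMs 0.887 to 1.19 in OVX and 1.83 to 2.52 in sham. Correction for GC content and exon length moved some of these ratios. In MSC+RAW-TW against MSC the fitted log2 change of Tnfaip3 to Rela was -1.84 as tested and -0.84 after each library's trends on them were removed, and that of Nfkb2 to Nfkb1 turned from 0.36 to -0.81. In OVX against sham, Nfkb2 to Nfkb1 went from -1.02 to -0.17 and Nfkbia to Rela from -0.76 to -0.95. Tnfaip3 to Rela turned there from 0.52 to -0.08. In MSC+RAW-LPS-TW against MSC, Nfkbia to Rela went from 2.41 to 2.55 and Tnfaip3 to Rela from 2.70 to 2.79.

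Against MSC+RAW-TW, which has the RAW264.7 cells but no LPS, 6 of the 10 genes were higher in MSC+RAW-LPS-TW, where 15.4% of all genes tested were called higher and 12.0% lower (40.2% passed the adjusted p alone). The comparison shares its LPS libraries with the one above, so both cannot be read as separate evidence. The lone MSC+RAW-TW sample (its libraries summed) is assumed to vary like the other groups. Tnfaip3 was at 11.6 and 13.0 CPM in the MSC+RAW-TW libraries, below every other library, and its difference to MSC+RAW-LPS-TW was 4.35 on the log2 scale (SE 0.24, adjusted p = 3.53e-09), a 20.4-fold difference. Nfkbiz was at 30.3 and 33.6 CPM in MSC+RAW-TW (difference 3.73, SE 0.23, adjusted p = 1.27e-08). Nfkbia was at 188 and 191 CPM in MSC+RAW-TW, between the other groups, and differed by 2.24 (SE 0.21, adjusted p = 1.19e-06). Rel differed by 2.63 (SE 0.25, adjusted p = 1.31e-06), Nfkb1 by 1.67 (SE 0.19, adjusted p = 9.41e-06) and Nfkb2 by 1.36 (SE 0.19, adjusted p = 4.80e-05).

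Relb (0.41, SE 0.19, adjusted p = 0.0938), Nfkbib (0.37, SE 0.22, adjusted p = 0.184), Nfkbie (0.33, SE 0.19, adjusted p = 0.175) and Rela (-0.19, SE 0.21, adjusted p = 0.50) did not pass. The median of the 10 genes was 1.52, against 0.14 over all genes, and libraries of both cocultures lay apart for 9 of the 10 genes and for 78.1% of all genes. After each library was corrected for its trends on GC content and exon length (lowess), the same 6 genes were called, with log2 differences from 1.10 for Nfkb1 to 4.05 for Tnfaip3. Rel was then at 1.89 and Rela turned to 0.42 (adjusted p = 0.101 in edgeR). Relb, Nfkbib and Nfkbie then had adjusted p of 0.00181, 0.00224 and 0.00371 at log2 differences of 0.92, 0.96 and 0.80, each under the fold limit.

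The comparison of MSC+RAW-TW with MSC asks what macrophages do without LPS. Of the 10 genes, Nfkbib was higher and Rel lower, where 6.80% of all genes were called higher and 9.59% lower. Nfkbib was at 48.4 and 47.8 CPM in MSC+RAW-TW, above both MSC libraries (log2 fold change 1.36, SE 0.21, adjusted p = 0.000423). Rel was at 7.57 and 6.18 CPM, below both MSC libraries (-1.49, SE 0.24, adjusted p = 0.000495). With no fold limit 7 of the 10 genes passed the adjusted p, as 28.6% of all genes did, and besides Nfkbib and Rel these were Rela (0.93, SE 0.20), Nfkbia (0.92, SE 0.18), Relb (0.84, SE 0.18), Nfkbie (0.79, SE 0.18) and Tnfaip3 (-0.91, SE 0.20). Rela was at 103 and 102 CPM in MSC+RAW-TW, Relb at 44.4 and 40.8, Nfkbie at 46.8 and 44.7 and Nfkb2 at 52.6 and 55.1, each above both MSC libraries, while Nfkb1 at 76.2 and 76.5 lay between them. Libraries of both groups lay apart for 9 of the 10 genes and for 78.4% of all genes. The adjusted p of those under the fold limit ran from 0.00204 to 0.00478. Nfkb2 (0.36), Nfkbiz (-0.38) and Nfkb1 (0.01) had adjusted p from 0.136 to 0.988. The median of the 10 genes was 0.58, while the median of all genes was -0.13, so values are to be read against that shift. Ribosomal RNA genes took 1.91% to 1.93% of the counts in MSC+RAW-TW, 4.14% to 4.83% in MSC and 5.67% to 8.03% in MSC+RAW-LPS-TW, and mitochondrial genes 0.160% to 0.165%, 0.533% to 0.692% and 0.655% to 0.746%. A count was found for 19657 to 19751, 23947 to 24876 and 22068 to 24553 genes in the same order. The fit without ribosomal RNA and mitochondrial genes called 2 NF-kB genes in MSC+RAW-TW against MSC, as with them, and the part of the number of genes found was not tested.

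These differences ran along the GC content of the genes. Rel (42.5% GC in its longest transcript), Tnfaip3 (47.1%) and Nfkbiz (50.1%) had negative values, and Nfkb1 (44.9%) was near 0. The genes above 52% GC had positive values. Spearman's rho between GC content and log2 fold change was 0.73 over the 10 genes, which share the same libraries, and 0.32 after correction for GC content and exon length. After this correction, neither Nfkbib (0.74, adjusted p = 0.0148) nor Rel (-0.83, adjusted p = 0.0120) reached the fold limit, and the direction of Nfkb2 turned (-0.26). Rela (0.27, adjusted p = 0.319), Relb (0.32, adjusted p = 0.21) and Nfkbie (0.35, adjusted p = 0.16) no longer passed the adjusted p, while Nfkb1 did (0.55, adjusted p = 0.043). Over all genes, rho between GC content and a gene's level relative to its mean was 0.503 to 0.510 in the MSC+RAW-TW libraries, -0.416 to -0.281 in MSC and -0.350 to -0.238 in MSC+RAW-LPS-TW. In MSC+RAW-LPS-TW against MSC, whose libraries have like trends, rho over the 10 genes was -0.22 and all 9 calls stood after it, with log2 fold changes from 1.06 for Rel to 3.47 for Tnfaip3.

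**Figure D2:**
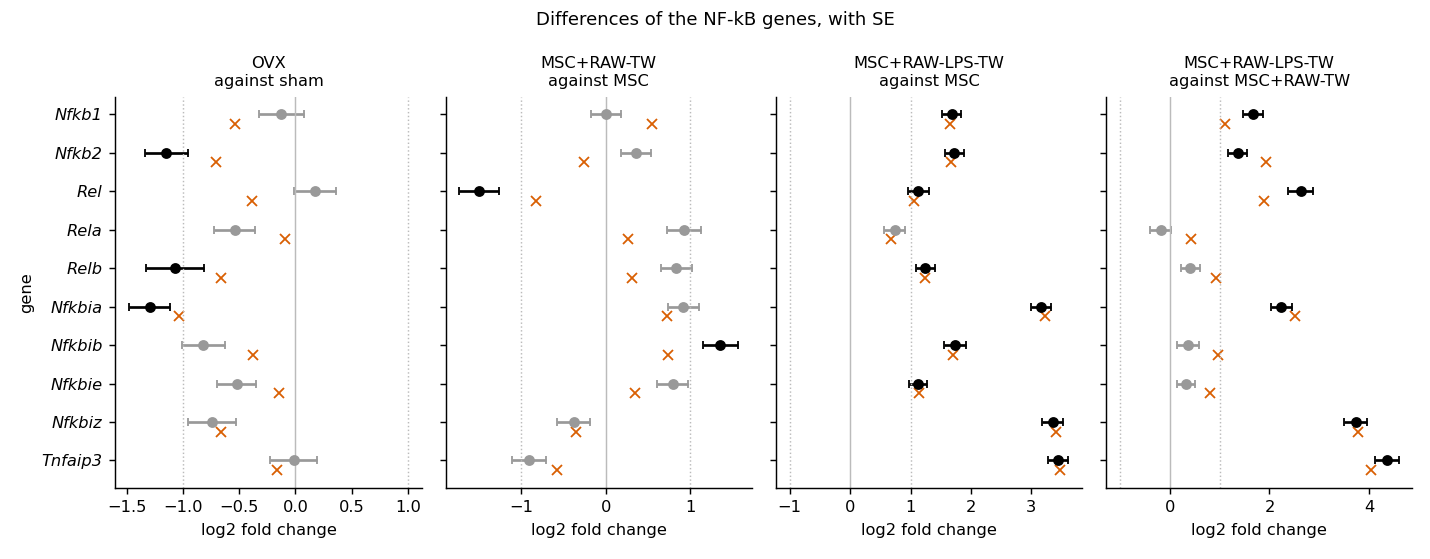
Log2 fold change of each NF-kB gene in the 4 comparisons. Points with bars are the fitted value and its SE (black, called; grey, not called), crosses the value after correction for GC content and exon length, and dotted lines a fold of 2 in either direction. Points and crosses lie close together in MSC+RAW-LPS-TW against MSC and apart in OVX against sham and MSC+RAW-TW against MSC.

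In macrophages from OVX mice, Nfkb2, Relb and Nfkbia were lower than in sham macrophages, and none of the 10 genes was higher. Over all 16768 genes tested, 5.39% were called higher and 3.08% lower. The comparison asks how the transcripts of marrow macrophages differ once the ovaries are removed. The median difference of the 10 genes was -0.64 on the log2 scale, against -0.01 over all genes. Nfkb2 and Relb encode the p100/p52 and RelB subunits of the alternative NF-kB pathway.

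Nfkbia was at 280.2, 329.7 and 359 CPM in OVX replicates 1 to 3 and at 772, 767 and 783 CPM in sham replicates 1 to 3. Every OVX library was below every sham library, and the sham libraries were nearly level. Libraries of both groups lay apart for 7 of the 10 genes and for 42.6% of all genes tested. The means were 774 CPM in sham (SD 2.06, n = 2) and 323 CPM in OVX (SD 39.7, n = 3), and the log2 difference was -1.30 (SE 0.18, adjusted p = 0.00741). Nfkb2 was at 24.7, 33.1 and 26.3 CPM in OVX and at 63.0, 57.8 and 58.5 CPM in sham, again without overlap (-1.15, SE 0.19, adjusted p = 0.00999). Relb, the RelB gene, was at 20.5, 29.1 and 34.4 CPM in OVX and at 48.1, 62.1 and 69.2 CPM in sham (-1.07, SE 0.26, adjusted p = 0.0321). Relb varied more within each group than Nfkbia did, and its groups did not overlap.

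Nfkbib was at 21.6, 26.7 and 28.4 CPM in OVX and at 43.5, 43.1 and 45.4 CPM in sham, which passed the adjusted p (0.0281), as 13.1% of all genes did, but not the fold limit (-0.82, SE 0.19). Nfkbiz was at 187, 139 and 128 CPM in OVX and at 272, 229 and 216 CPM in sham, and it did not pass (-0.74, SE 0.21, adjusted p = 0.0555). Rela (-0.54, SE 0.18, adjusted p = 0.0911) and Nfkbie (-0.52, SE 0.17, adjusted p = 0.0858) did not pass. Rela ran from 52.8 to 66.7 CPM in OVX and from 79.99 to 85.8 CPM in sham, and Nfkbie from 20.6 to 23.2 and from 29.9 to 31.4 CPM. The groups overlapped for Nfkb1 (66.9 to 73.2 CPM in OVX, 60.7 to 90.9 CPM in sham), for Rel (17.0 to 19.7 and 13.0 to 17.3 CPM) and for Tnfaip3. Nfkb1 had a log2 fold change of -0.13 (SE 0.20), Rel of 0.17 (SE 0.19) and Tnfaip3 of -0.02 (SE 0.21), with adjusted p from 0.588 to 0.970. Tnfaip3 ran from 22.9 to 28.5 CPM in OVX and from 19.2 to 30.8 CPM in sham, while Nfkbia, the other feedback inhibitor named above, lay apart.

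**Figure D3:**
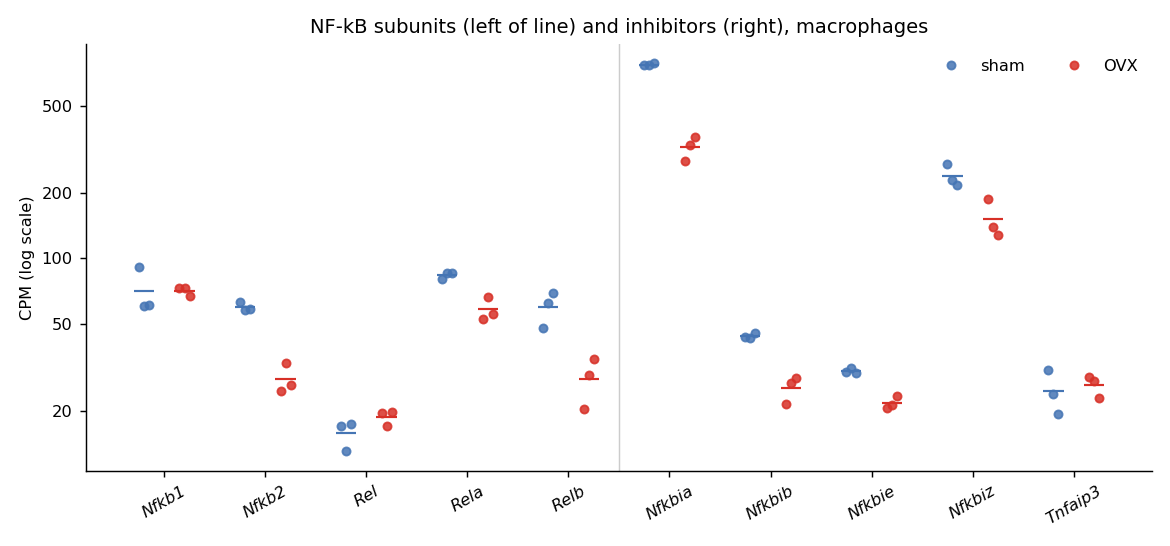
Level of each NF-kB gene in bone marrow macrophages, in CPM on a log axis. Each point is 1 library and each bar the mean of a group's libraries. Nfkbia, Nfkb2 and Relb lie lower in all 3 OVX libraries than in all 3 sham libraries, and Nfkb1, Rel and Tnfaip3 overlap.

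Here too the differences ran along GC content. Spearman's rho between GC content and log2 fold change was -0.67 over the 10 genes and 0.03 after correction for GC content and exon length. After this correction, Nfkbia was still called (-1.04, adjusted p = 0.0104), while Nfkb2 (-0.71, adjusted p = 0.0455) and Relb (-0.66, adjusted p = 0.0834) were not. Nfkbib was at -0.38 and no longer passed the adjusted p (0.158), Rel turned to -0.39, and Rela and Nfkbie were at -0.09 and -0.15. Nfkb1 moved the other way, from -0.13 to -0.54 (adjusted p = 0.125 in edgeR). Over all genes, rho between GC content and relative level was -0.704 to -0.387 in the OVX libraries and 0.234 to 0.639 in sham, so GC content and operation cannot be told apart in these libraries.

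**Figure D4:**
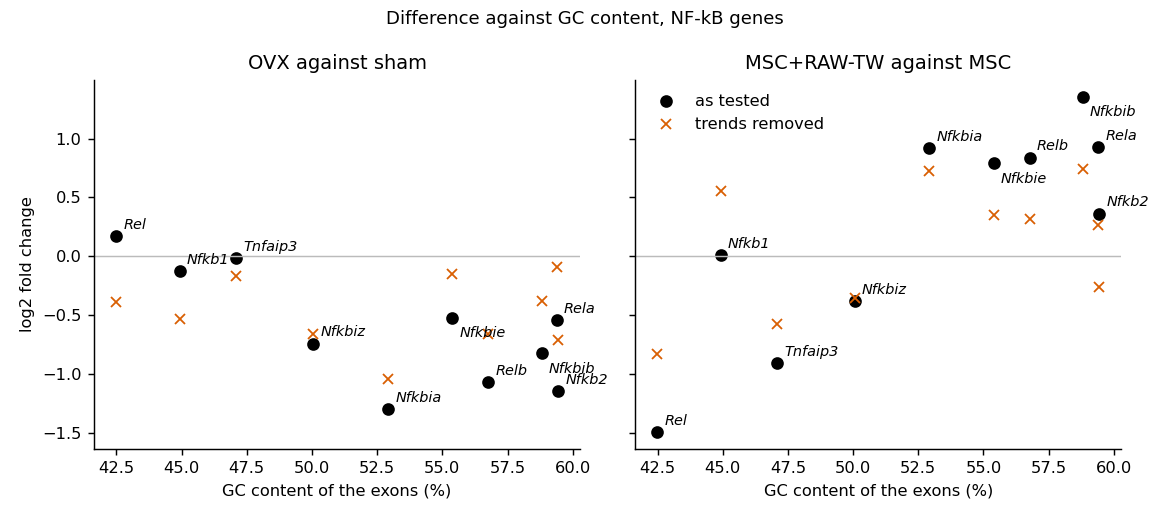
Log2 fold change of each NF-kB gene against the GC content of its longest transcript in percent (the axis says exons). Black points are as tested, and orange crosses after correction for GC content and exon length. As tested, the genes of high GC content are lower in OVX against sham and higher in MSC+RAW-TW against MSC.

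Libraries and cell markers also moved with the OVX comparison. Without OVX replicate 2, Nfkbia had an adjusted p of 0.0531 at a log2 fold change of -1.30 and Relb of 0.117 at -1.09, about as large as with it, which left Nfkb2 as the only call, and 309 of all genes were then called. Without OVX replicate 1, Relb had a log2 fold change of -0.89, and 2 of the 10 NF-kB genes and 678 of all genes were called. The 18 macrophage markers summed to 47212 to 51053 CPM in OVX and 62564 to 70197 CPM in sham. The 14 stromal markers summed to 7915 to 8580 and 7365 to 8313 CPM, the 9 neutrophil markers to 1214 to 1352 and 823 to 914 CPM, and the 7 osteoclast markers to 289 to 298 and 480 to 597 CPM. The 6 B cell markers summed to 62.0 to 89.2 and 122 to 141 CPM, and the 6 T cell markers to 6.999 to 9.61 and 7.53 to 8.13 CPM. Their part in the differences was not tested. Ribosomal RNA genes took 2.56% to 2.78% of the counts in OVX and 3.22% to 5.70% in sham, and mitochondrial genes 1.05% to 1.72% and 0.769% to 1.12%. Without these genes in the fit, 3 NF-kB genes were called in OVX against sham, as with them. The column names carry identifiers in 2 number ranges. The log2 ratio of OVX to sham was -1.22 for Nfkbia in the lower range (1 library against 1) and -1.28 in the higher (2 against 2). It was -0.81 and -1.25 for Nfkb2, and -1.09 and -1.10 for Relb. Sham replicate 2 stands in the lower range and replicate 3, its near-identical library, in the higher, so both ranges share a control sample and are not separate evidence.

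The wider pathway was described through 3 lists of textbook genes besides the 10. The first holds 37 genes of receptor-proximal signaling and of the kinases that activate NF-kB. In MSC+RAW-LPS-TW against MSC, 5 of them were higher and 1 lower (median 0.22), against 10.9% of all genes called in either direction. Birc3, which encodes the ubiquitin ligase cIAP2, rose by 2.67 on the log2 scale (SE 0.17). Tnfrsf1b, a TNF receptor, rose by 2.54 (SE 0.16), Cd40 by 2.44 (SE 0.18) and Irak2, a kinase below Toll-like receptors, by 1.65 (SE 0.16). In OVX against sham 2 of the 37 were lower and none higher (median -0.45; 8.46% of all genes called), namely Tnfrsf1b (-1.15, SE 0.17) and Ikbke (-1.08, SE 0.18). Without OVX replicate 2, 0 of the 37 and 309 of all genes were called.

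The second list, called regulators, holds 21 genes of other IkB family proteins and of negative regulators of NF-kB. In MSC+RAW-LPS-TW against MSC, 7 were higher and 1 lower (median 0.48), against 10.9% of all genes called in either direction. Traf1 rose by 2.85 (SE 0.17), Zc3h12a, the RNase Regnase-1 that degrades inflammatory mRNAs, by 2.77 (SE 0.16), Tnip1, a partner of A20, by 2.71 (SE 0.16) and Irak3 by 1.85 (SE 0.15). In OVX against sham 1 was higher and 4 lower (median -0.50; 8.46% of all genes called). Bcl3, a nuclear IkB protein, fell by 1.82 on the log2 scale (SE 0.19), Zc3h12a fell by 1.79 (SE 0.24) and Tnip1 fell by 1.15 (SE 0.20), while Tax1bp1, another partner of A20, rose by 1.28 (SE 0.22). Zc3h12a and Tnip1 were thus lower in OVX and higher in MSC+RAW-LPS-TW, as Nfkb2, Relb and Nfkbia were. So were Bcl3 (1.72, SE 0.17 in MSC+RAW-LPS-TW against MSC) and Irak3 (-1.14, SE 0.18 in OVX), values given after they were seen. After correction for GC content and exon length, Nfkb2 and Relb were no longer called in OVX.

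Of 32 textbook target genes, 31 were tested in the MSC experiment. In MSC+RAW-LPS-TW against MSC, 27 were higher and 3 lower (median 3.63; 10.9% of all genes called in either direction). Nos2, the inducible nitric oxide synthase, was at 863 CPM (SD 87.3, n = 2) against 1.80 CPM (SD 0.633, n = 2), Il6 at 204 CPM (SD 18.0) against 0.459 CPM (SD 0.109), and Il1a at 1125 CPM (SD 203) against 0.941 CPM (SD 0.0410). Csf2 was at 45.7 CPM (SD 1.06) against 0.0397 CPM (SD 0.0270), at most 2 counts in a library. These named genes reached the minimum for naming only through MSC+RAW-LPS-TW. Csf2 and Il12b, which had no count in MSC, also passed the filter of the test only through it. Their higher level in MSC+RAW-LPS-TW was thus fixed by the choice. The lower genes were Cd83, Bcl2l1 and Plau, named here after their values were seen. In OVX against sham 1 of the 29 targets tested was higher and 10 lower (median -0.71; 8.46% of all genes called). Saa3, an acute-phase protein, averaged 590 CPM in OVX (SD 29.2, n = 3) and 6560 CPM in sham (SD 286, n = 2), -3.51 on the log2 scale (SE 0.17), and the chemokine Ccl5 changed by -2.06 (SE 0.19), the protease Mmp9 by -1.72 (SE 0.17) and the chemokine Cxcl1 by -1.67 (SE 0.25).

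In MSC+RAW-TW against MSC the lists were mixed, with 16.4% of all genes called in either direction. Of the signaling genes 4 were higher and 4 lower (median -0.14), among the latter Chuk, which encodes the kinase IKK-alpha (-1.68, SE 0.26), Tab3 (-1.62, SE 0.33), Birc2 (-1.61, SE 0.29) and Il1r1 (-1.57, SE 0.27). Of the regulators 4 were higher and 1 lower (median 0.28), led by Tnfaip8l2 (1.51, SE 0.21), Nfkbil1 (1.41, SE 0.28), Commd1 (1.34, SE 0.18) and Trim30a (-1.12, SE 0.22). Of the targets 6 were higher and 3 lower (median 0.07), with Ccl5 at 2.15 (SE 0.22) and Cxcl1 at -2.06 (SE 0.30). Il6, at 1.75 against 0.459 CPM, and Il1a, at 0.0852 against 0.941 CPM, were also among the calls, but both levels are low in each of these groups and reached the minimum for naming a gene only through MSC+RAW-LPS-TW. After correction for GC content and exon length, 4 of the 37 signaling genes and 2 of the 21 regulators were called. Of all 20499 genes tested, 2165 were then called, in place of 3360.

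Against MSC+RAW-TW, 27 of the 31 targets were higher and 2 lower in MSC+RAW-LPS-TW (median 3.47; 27.4% of all genes called in either direction). Il1b, the cytokine IL-1beta, was at 7263 CPM (SD 1212, n = 2) against 21.9 CPM, Nos2 at 863 against 1.01 CPM and Il1a at 1125 against 0.0852 CPM. Csf2 had no count in either MSC+RAW-TW library and was at least 575-fold higher, taking 3 counts per library as the floor. Here too Nos2, Il1a and Csf2 were named, and Csf2 and Il12b tested, only through MSC+RAW-LPS-TW. Of the signaling genes 10 were higher and 5 lower (median 0.50), with Birc3 at 3.26 (SE 0.24), Tnfrsf1b at 3.03 (SE 0.22), Il1r1 at 2.50 (SE 0.28) and Chuk at 1.70 (SE 0.26). After correction for GC content and exon length, 7 of the 37 signaling genes were called in place of 15. Of all 20499 genes tested, 4682 were then called, in place of 5624. Of the regulators 7 were higher and 4 lower (median 0.57), with Tnfaip8l2 at -2.77 (SE 0.22), Traf1 at 2.70 (SE 0.23), Irak3 at 2.26 (SE 0.20) and Zc3h12a at 1.90 (SE 0.21). All named list genes had adjusted p of at most 0.05 in edgeR.

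The genes whose log2 levels were most like those of each NF-kB gene were sought among 9734 genes, by the lower of 2 Pearson correlations, over the 5 BMM samples and the 5 MSC samples. With so few samples and groups that differ, high values arise easily, and they are given as a description. For Nfkbia the nearest was Socs3, a feedback inhibitor of cytokine signaling (0.993), followed by Ndrg1 (0.993) and Dusp2 (0.991). For Nfkb2 these were Uchl1 (0.993), Myd88, the adaptor of Toll-like receptors (0.992), and Ccl4 (0.987). For Nfkbiz they were Acsl1 (0.996), Trim21 (0.990) and Stx11 (0.989), for Nfkb1 Ptgfrn (0.992), Pgam1 (0.989) and Cxcl10 (0.988), and for Tnfaip3 Pgk1 (0.985), Cd69 (0.982) and Eaf1 (0.981). Nfkbib and Nfkbie shared Serping1 (0.988 and 0.995) and Nr1h3 (0.985 and 0.987) among their nearest, beside Acot7 (0.986) for the first and Stat5b (0.992) for the second. Relb was nearest to Sdc1 (0.986), Mrpl45 (0.986) and Uba7 (0.983), Rela to Gstp1 (0.985), Ctu1 (0.984) and Mvd (0.981), and Rel to Bbx (0.990), Ncoa4 (0.954) and Col1a2 (0.936).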

How the data were processed

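Poly(A) RNA of BMMs (3 OVX, 3 sham) and MSC cultures (2 libraries in each of 3 groups) was made into libraries with a directional kit. Per the submitters' processing notes, the tools were Trim Galore 0.6.7, HISAT2 2.1.0 and featureCounts 2.0.1, with GRCm38. The authors deposited raw counts per Ensembl gene, not normalized, for 55487 genes. Exon lengths (another deposited column) gave levels per kilobase. How strand and read pairs were counted was not given in the sources used here. Even numbers made up 60.0% to 71.4% of the counts from 1 to 20, so a count is not 1 independent molecule.

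GENCODE M21 named 55227 genes. Counts were tested with edgeR 4.0.16 in R 4.3.3 (filterByExpr, TMM, quasi-likelihood F-test, two-sided, Benjamini-Hochberg over all genes tested). Near-identical libraries were found by a chi-square of their counts and summed: its ratio to sampling noise was 2.52 at low and 2.75 at high counts for sham 2 and 3, and 3.03 and 3.22 for the MSC+RAW-TW pair. In the other pairs it was 3.02 to 14.1 times as large at high as at low counts. The MSC columns of the LPS group are numbered 2 and 3, and both MSC+RAW-TW columns carry 1 number, so these were matched to groups only. All 3 MSC comparisons came from 1 fit. Trends were removed by lowess (span 0.3). Named list genes are up to 4 called genes per list and comparison with the largest change and a mean of at least 5 CPM over all libraries of the experiment, and 3 most alike genes per member (same minimum, log2 of CPM + 1).

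The 10 genes, the lists and the markers were chosen with earlier results of these data known. Fits were tested on simulated data. Alternatives were RLE, DESeq2 1.42.0, other filters, no fold limit, all libraries kept apart, each library left out, only the groups compared, no ribosomal RNA or mitochondrial genes, and trends removed. The identifier range of the column names as a term was added after seeing the data.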

Additional observations from a re-analysis of the deposited data

How the results depend on the processing

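Of the 4 comparisons, both with MSC+RAW-LPS-TW kept their calls of NF-kB genes, 9 and 6, under every alternative run, except that without LPS library 2 there were 8 against MSC and without the fold limit 10. After correction for GC content and exon length, OVX against sham gave 590 genes with 1 NF-kB gene among them, and MSC+RAW-TW against MSC gave 2165 genes with 0 NF-kB genes (5 past edgeR's adjusted p alone, 5 at an unadjusted p of 0.05). Rel turned to -0.39 in OVX, Nfkb2 to -0.26 in MSC+RAW-TW against MSC, and Rela to 0.42 between both cocultures. In MSC+RAW-TW against MSC 4 signaling genes and 2 regulators were called, and 7 signaling genes in the last comparison, beside 4682 of all genes. The cause was not tested.

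With no fold limit, OVX against sham gave 2193 genes, 11 signaling genes and 8 regulators. MSC+RAW-LPS-TW against MSC gave 4286 genes and 13 signaling genes, MSC+RAW-TW against MSC 5862 genes, 7 NF-kB genes, 17 signaling genes and 10 regulators, and the comparison of both cocultures 25 signaling genes. With every library kept apart, Tnfaip3 in OVX was 0.058 and Nfkb1 in MSC+RAW-TW against MSC -0.021, and with the identifier range as a term 0.058 and -0.020. Nfkb1 was -0.017 with only the groups compared.

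Leaving out 1 library gave 309 to 2390 genes and 1 to 3 NF-kB genes in OVX against sham, with 0 to 7 signaling genes, 2 to 6 regulators and 7 to 12 targets. The range was 2603 to 4231 genes, 2 to 4 NF-kB genes and 3 to 6 regulators in MSC+RAW-TW against MSC. Values near 0 changed sign. In OVX, Tnfaip3 ran from -0.088 to 0.24 and Nfkb1 from -0.15 to 0.15. Nfkb1 in MSC+RAW-TW against MSC ran from -0.056 to 0.069 and Rela between both cocultures from -0.42 to 0.033.

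The same-numbered OVX and sham BMM libraries correlated at 0.583, -0.0722 and 0.640 in their deviations from group means. Libraries of different numbers correlated at -0.698 to 0.629. Since sham replicates 2 and 3 are near-identical, these values cannot show whether replicate numbers pair the libraries. With every library kept apart the fit called 1818 genes and 3 NF-kB genes, and with the replicate number as a block added to it 2117 and 3, with Tnfaip3 at 0.073. No paired analysis by replicate number was possible for the MSC groups because the columns of any 2 of them share fewer than 2 numbers. With every library kept apart, the MSC+RAW-TW pair included, and the identifier range as a term, which blocks 1 library of each group together, 9 NF-kB genes were called in MSC+RAW-LPS-TW against MSC, 2 in MSC+RAW-TW against MSC and 6 between both cocultures. The median of all genes in MSC+RAW-TW against MSC was -0.13, -0.27 with no filter and -0.01 at a mean of at least 1 CPM. After the correction the higher and lower calls were 220 and 370 in OVX (903 and 516 before) and 1128 and 1037 in MSC+RAW-TW against MSC (1394 and 1966 before). Rel had 213 to 1640 counts in a library, the fewest of the 10 genes in the lowest library.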
